A study of Mus musculus with 6 samples.

Results

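Regulators of G protein signalling (RGS proteins) shorten the signals of G protein-coupled receptors. An activated receptor loads the G protein α subunit with GTP and frees it from the βγ pair, and an RGS protein speeds the hydrolysis of that GTP so that the subunits join again. In the walls of vessels and of the gut, members of the family are known from smooth muscle cells and pericytes, the contractile cells that wrap capillaries, where they limit contraction driven by hormones and transmitters. The genes described here are 10 members of the family, *Rgs2*, *Rgs3*, *Rgs4*, *Rgs5*, *Rgs10*, *Rgs12*, *Rgs14*, *Rgs16*, *Rgs17* and *Rgs19*. They were chosen by gene symbol with measured values of the EGFP contrast in view, so their values in that contrast are a description without a test. Of these 10 genes, 9 are among the 20327 gene symbols read here, and *Rgs14* was not analysed here.

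The study compared IL-11- (EGFP-Negative) with IL-11+ (EGFP-Positive) fibroblasts sorted from the inflamed colon (n = 3 libraries per group, from 3 mice per the paper), to describe the cells that turn on *Il11* in colitis. All libraries came from male *Il11-Egfp* mice of the C57BL/6 strain, aged 9 to 15 weeks, which drank 1.5% dextran sulfate sodium (DSS) for 5 days and were used on day 7. In both groups the sorted cells were negative for Ter119, CD45, CD31, EpCAM and DAPI, so that red cells, leukocytes, endothelium, epithelium and dead cells were gated out, and EGFP alone separated the groups. The reporter is a bacterial artificial chromosome with *Egfp* placed in *Il11*, carried by a single selected transgenic line, and an EGFP-Negative cell is thus any remaining stromal cell without reporter signal. RNA was read by 5′Tag-seq, which counts tags from the 5′ side of polyA RNA, with 1057170, 1078179 and 1169817 tags for the IL-11- libraries and 1046538, 1022851 and 1049048 for the IL-11+ libraries.

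Values below are tags, or normalized CPM, in which the tags are scaled to a common library size by the trimmed mean of M-values (TMM) method of edgeR. Tests covered the 9334 genes that reached 10 tags in 3 or more libraries. The call rule asked for an adjusted p below 0.05 together with a fold change above 2. A gene under that fold is not called even where its adjusted p is below 0.05. The groups carried their labels in the RNA. *Il11* had 28, 51 and 89 tags in the IL-11- libraries and 1357, 732 and 2658 tags in the IL-11+ libraries. Its fitted ratio was 31.5-fold higher in IL-11+ fibroblasts, and no IL-11- library came near the IL-11+ libraries.

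The RGS family differed between the groups in both directions. *Rgs5* and *Rgs4* were low in IL-11+ fibroblasts, and both met the call rule. *Rgs2*, *Rgs16*, *Rgs3* and *Rgs17* lay higher in all IL-11+ libraries, but of these only *Rgs2* and *Rgs16* met the call rule. *Rgs10*, *Rgs12* and *Rgs19* overlapped between the groups. Of the 9 genes, 8 passed the filter on low values and *Rgs19* did not. By the call rule, 2 of the 8 stood lower in IL-11+ fibroblasts and 2 stood higher, while 6.37% of all 9334 tested genes were called lower, 3.44% higher and 9.81% in either direction. For 6 of the 8, every library of a group lay on the same side of the other group, which held for 31.2% of all tested genes and by chance holds for 10% with 3 libraries against 3. Nothing is read from these counts, since the genes were chosen on this contrast. Over the 8 genes the log2 fold change had a median of 0.25, and over all tested genes of -0.01.

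**Figure D1:**
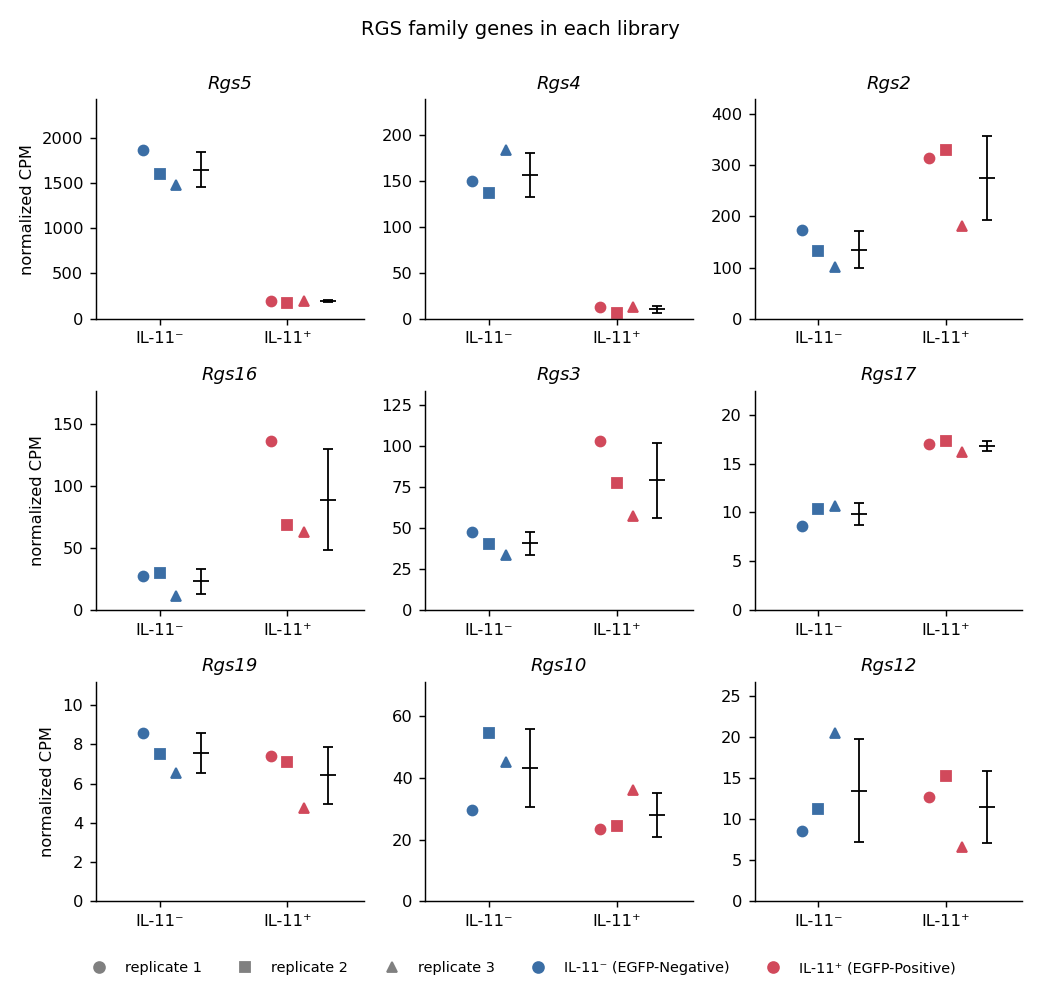
Normalized CPM of 9 RGS genes in each of the 6 libraries, with the y axis of each panel starting at 0 and the mean ± SD of each group beside its points. *Rgs5* and *Rgs4* stand far lower in all 3 IL-11+ libraries, *Rgs2*, *Rgs16*, *Rgs3* and *Rgs17* stand higher there, and the points of *Rgs19*, *Rgs10* and *Rgs12* overlap.

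The R4 subfamily holds the small members, built of little more than the RGS domain, which act on Gi and Gq α subunits. *Rgs5*, widely used as a marker of pericytes and vascular smooth muscle, had 1951, 1700 and 1800 tags in the IL-11- libraries and 186, 174 and 206 tags in the IL-11+ libraries (replicates 1, 2 and 3, in this order throughout). All 3 IL-11- libraries were high and all 3 IL-11+ libraries low, with a wide gap between them. Its group means were 1648 ± 196 and 190.1 ± 11.6 normalized CPM (SD, n = 3), a level 8.66-fold lower in IL-11+ (log2 fold change -3.11, SE 0.18). Between libraries of the same replicate number, the log2 ratio was -3.24, -3.18 and -2.91. The coefficient of variation was 11.9% among IL-11- and 6.12% among IL-11+ libraries, so the spread within each group was small beside the difference.

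*Rgs4*, a Gi and Gq regulator studied in heart, brain and smooth muscle, had 157, 145 and 224 tags in the IL-11- libraries and 12, 6 and 13 tags in the IL-11+ libraries. Every IL-11+ library was near the lower limit of what was tested, and no library of either group reached the other. The means were 157 ± 24.4 and 10.4 ± 3.74 normalized CPM (SD, n = 3), a level 14.9-fold lower in IL-11+ fibroblasts (log2 fold change -3.90, SE 0.255). Ordered from the most negative log2 fold change, *Rgs4* took place 42 and *Rgs5* place 83 among the 9334 tested genes. Leaving out each library in turn kept *Rgs5* between -3.19 and -3.02 and *Rgs4* between -4.05 and -3.63. In these bulk samples, fewer cells of a type and less RNA per cell cannot be told apart.

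*Rgs2*, which prefers Gq α subunits and lowers vascular tone, went the other way. Its tags were 182, 140 and 122 in the IL-11- libraries and 296, 325 and 190 in the IL-11+ libraries. IL-11+ replicates 1 and 2 were high, while IL-11+ replicate 3 lay just above IL-11- replicate 1, so the groups were apart by a narrow margin. The means were 135 ± 36.9 and 275 ± 81.6 normalized CPM (SD, n = 3), 2.03-fold higher in IL-11+ (log2 fold change 1.02, SE 0.228). This ratio sits at the fold threshold, and the call was lost with scaling by library size only (log2 fold change 0.94), with 10 tags asked of all 6 libraries (0.98), and without IL-11- replicate 3 (0.85), IL-11+ replicate 1 (0.93) or IL-11+ replicate 2 (0.88).

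*Rgs16*, an R4 member that is induced by inflammatory stimuli in several cell types, had 29, 32 and 14 tags in the IL-11- libraries and 128, 67 and 66 tags in the IL-11+ libraries. IL-11+ replicate 1 stood highest and IL-11- replicate 3 lowest, and the groups did not overlap. Its group means were 23.1 ± 10.1 and 88.9 ± 40.6 normalized CPM (SD, n = 3), 3.87-fold higher in IL-11+ (log2 fold change 1.95, SE 0.33). The spread within each group was wide, with a coefficient of variation of 43.9% and 45.7%. Without IL-11+ replicate 1 the log2 fold change was 1.53, and without IL-11- replicate 2 it was 2.21.

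*Rgs3*, which has longer isoforms with further domains and can also bind the βγ pair, had 50, 43 and 41 tags in the IL-11- libraries and 97, 76 and 60 tags in the IL-11+ libraries. All IL-11+ libraries lay above all IL-11- libraries, closest for IL-11+ replicate 3. The means were 40.6 ± 7.04 and 79.1 ± 22.9 normalized CPM (SD, n = 3), 1.94-fold higher in IL-11+ (log2 fold change 0.96, SE 0.235), just short of the fold threshold. It passed that threshold without IL-11- replicate 1 (log2 fold change 1.09) and without IL-11+ replicate 3 (1.15). Of all 50-nt windows in the annotated *Rgs3* transcripts, 11.4% also occur in *Gm5763*, so that tags of these genes could be shared.

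The RZ subfamily is short as well, and its members carry a cysteine-rich stretch near the N terminus. *Rgs17*, which acts on Gz and other Gi-type subunits, had 9, 11 and 13 tags in the IL-11- libraries and 16, 17 and 17 tags in the IL-11+ libraries. The IL-11+ libraries were close together and all above the IL-11- libraries, at counts where a few tags make the difference. Its means were 9.88 ± 1.12 and 16.8 ± 0.54 normalized CPM (SD, n = 3), with a log2 fold change of 0.76 (SE 0.35). *Rgs19*, also called GAIP, had 9, 8 and 8 tags in the IL-11- libraries and 7, 7 and 5 tags in the IL-11+ libraries. No library reached 10 tags, and the normalized levels overlapped. The IL-11+ library was lower in each same-numbered pair (log2 ratio -0.20, -0.08 and -0.42), at counts where 1 or a few tags make the difference. A difference between the groups was not detectable at this depth. Fitted without the filter on low genes, its log2 fold change was -0.19 (SE 0.542).

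The R12 subfamily joins the small *Rgs10* with the large scaffolds *Rgs12* and *Rgs14*, which carry Ras-binding and GoLoco motifs beside the RGS domain. *Rgs10*, a Gi regulator best known from immune cells and microglia, had 31, 58 and 55 tags in the IL-11- libraries and 22, 24 and 38 tags in the IL-11+ libraries. IL-11+ replicate 3 was above IL-11- replicate 1, so the groups overlapped, although the IL-11+ library was lower in each same-numbered pair. The means were 43.1 ± 12.6 and 28.0 ± 7.18 normalized CPM (SD, n = 3; log2 fold change -0.62, SE 0.277, and -0.41 without IL-11- replicate 2). *Rgs12* had 9, 12 and 25 tags in the IL-11- libraries and 12, 15 and 7 tags in the IL-11+ libraries. The highest and the lowest values of *Rgs12* came from replicate 3 of either group, and the groups overlapped. Its log2 fold change of -0.25 (SE 0.424) was smaller than its error. It was -0.50 without IL-11+ replicate 2, and its sign turned without IL-11- replicate 3 (0.20) or IL-11+ replicate 3 (0.03).

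The make-up of the family therefore differed between the groups. *Rgs5* gave 80.4%, 79.1% and 78.2% of the tags of the 9 genes in the IL-11- libraries and 24.0%, 24.5% and 34.2% in the IL-11+ libraries. Its share was high and even in the IL-11- libraries and low in all IL-11+ libraries, where IL-11+ replicate 3 was the highest. The 9 genes summed to 2317, 2025 and 1890 normalized CPM in IL-11- and to 822, 722 and 574 in IL-11+ libraries. Without *Rgs5*, the sums were 454, 423 and 412 in IL-11- and 625, 545 and 378 in IL-11+ libraries, which overlap.

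Other RGS family genes were mostly too low to test. Of the 12 listed, 7 had a row and 1 passed the filter. *Rgs1*, an R4 member known from lymphocytes, had 20, 10 and 19 tags in the IL-11- libraries and 3, 1 and 7 tags in the IL-11+ libraries. It was 3.90-fold lower in IL-11+ fibroblasts, with no overlap between the groups (log2 fold change -1.96, SE 0.527, adjusted p = 0.0149, edgeR's quasi-likelihood test, Benjamini-Hochberg). That call was lost without IL-11- replicate 1 (log2 fold change -1.75), IL-11+ replicate 1 (-1.87) or IL-11+ replicate 2 (-1.53), and without IL-11+ replicate 3 the value was -2.76. *Rgs6*, of the R7 subfamily that works in a complex with *Gnb5*, had 13, 10 and 6 tags in the IL-11- libraries and 1, 1 and 0 tags in the IL-11+ libraries, and was too low to be tested. The remaining 5, *Rgs7*, *Rgs9*, *Rgs11*, *Rgs20* and *Rgsl1*, had at most 6 tags in any library.

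The RGS genes can also be placed by position. In GENCODE release M21 (GRCm38), *Rgs2* (144004161 to 143999338, minus strand), *Rgs16* (153740349 to 153745468, plus strand), *Rgs5* (169655501 to 169695813, plus strand) and *Rgs4* (169747642 to 169741477, minus strand) all lie on chromosome 1. *Rgs5* and *Rgs4* are direct neighbours that face each other tail to tail, with 45663 bases and no annotated gene between them, and both were low in IL-11+ fibroblasts. *Rgs1* lies 238134 bases from *Rgs2*, and there the levels differed in opposite directions. *Rgs3*, *Rgs10*, *Rgs12*, *Rgs17* and *Rgs19* lie on chromosomes 4, 7, 5, 10 and 2. *Rgs2*, *Rgs4*, *Rgs5* and *Rgs16* each have 5 exons in their longest transcript, and 0.255% of the 50-nt windows of *Rgs4* and none of the windows of the other 3 occur in another gene, so that sharing of tags hardly touches them.

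The promoters of these 4 genes are shown because the genes moved as a low and a high pair. Sequences are from RefSeq (GRCm38.p6), run 5′ to 3′ on the strand of the gene, and end just past the start of transcription. Capitals mark CCAAT (the CCAAT box), TATAAA (the TATA box) and TGACG (the half-site of the cyclic AMP response element, CRE), each read on both strands. The windows are chr1:169655251-169655550 (plus strand) for *Rgs5*, chr1:169747593-169747892 (minus) for *Rgs4*, chr1:144004100-144004399 (minus) for *Rgs2* and chr1:153740103-153740402 (plus) for *Rgs16*.
Rgs5: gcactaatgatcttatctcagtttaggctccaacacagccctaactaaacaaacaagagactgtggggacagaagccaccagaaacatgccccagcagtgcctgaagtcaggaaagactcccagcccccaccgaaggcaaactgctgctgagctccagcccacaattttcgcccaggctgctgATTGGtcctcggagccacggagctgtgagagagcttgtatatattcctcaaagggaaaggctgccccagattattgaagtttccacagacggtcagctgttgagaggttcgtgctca
Rgs4: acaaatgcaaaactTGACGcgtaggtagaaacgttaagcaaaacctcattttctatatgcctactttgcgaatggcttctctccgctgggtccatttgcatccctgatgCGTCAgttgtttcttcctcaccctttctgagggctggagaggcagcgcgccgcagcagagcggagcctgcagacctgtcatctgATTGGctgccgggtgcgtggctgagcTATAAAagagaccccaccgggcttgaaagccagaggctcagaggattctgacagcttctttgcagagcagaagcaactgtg
Rgs2: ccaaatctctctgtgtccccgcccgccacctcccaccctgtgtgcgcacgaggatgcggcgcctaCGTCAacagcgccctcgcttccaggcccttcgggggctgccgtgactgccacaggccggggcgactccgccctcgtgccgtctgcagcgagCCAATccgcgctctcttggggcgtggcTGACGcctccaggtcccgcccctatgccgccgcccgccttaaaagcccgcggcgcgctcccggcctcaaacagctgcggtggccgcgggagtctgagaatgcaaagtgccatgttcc
Rgs16: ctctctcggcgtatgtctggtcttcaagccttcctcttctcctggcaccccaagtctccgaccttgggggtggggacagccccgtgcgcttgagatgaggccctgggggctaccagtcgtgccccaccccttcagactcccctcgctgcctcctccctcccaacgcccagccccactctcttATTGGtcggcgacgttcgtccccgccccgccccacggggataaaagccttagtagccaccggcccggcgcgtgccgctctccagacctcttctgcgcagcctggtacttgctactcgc

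All 4 promoters hold a CCAAT box, which lies 67, 57, 94 and 68 bases before the start in *Rgs5*, *Rgs4*, *Rgs2* and *Rgs16*. Among the 32851 promoters of the table, 37.4% hold CCAAT on either strand, and the 9 promoters of the other 5 members hold none. *Rgs4* is the only gene of the 4 with TATAAA (13.6% of all promoters), 31 bases before the start, and *Rgs3* has it too. The CRE half-site TGACG (20.8% of all promoters) is found at 2 places each in *Rgs4* and *Rgs2* and at none in *Rgs5* and *Rgs16*, and it is also in *Rgs12*. TGANTCA, the AP-1 site (7.81% of all promoters), and the CArG box (1.63%), bound by serum response factor, have no match in these 4 windows, while *Rgs12* and *Rgs17* have the AP-1 site. The GC box GGGCGG (35.7% of all promoters) is in 7 of the 9 members, *Rgs2* and *Rgs16* among them, and not in *Rgs4* and *Rgs5*. The G and C content of *Rgs2*, *Rgs16*, *Rgs4* and *Rgs5* is 70.0%, 66.0%, 53.0% and 52.3%, against a median of 52.7% over all promoters. These matches describe the letters of the windows. All 9 members with a row had at least 1 promoter in the table, 13 in total.

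Around the RGS genes, the machinery they act on was compared through lists of genes, tested within the fit over all genes. The lists were chosen with earlier results of these data known, so no enrichment is read from their counts. Of 150 genes in these lists, 143 had a row and 88 were tested. Of these 88, 4 were called higher and 16 called lower in IL-11+ fibroblasts (4.55% and 18.2%, beside 3.44% and 6.37% of all tested genes). Their median log2 fold change was -0.16. These counts moved with the settings. Called higher were 2 without IL-11+ replicate 1, 6 with the replicate number as a block, 7 without a filter on low genes and 9 without the fold threshold, and called lower were 8 when 10 tags were asked of all 6 libraries.

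None of the 8 tested G protein α subunits was called by edgeR's quasi-likelihood test. *Gnas*, the stimulatory Gs subunit, averaged 459 ± 47.5 and 428 ± 76.3 normalized CPM in the IL-11- and IL-11+ libraries, and *Gnai2*, an inhibitory Gi subunit, averaged 235 ± 36.6 and 217 ± 28.7 (SD, n = 3). Both overlapped between the groups. Of the 9 tested β and γ subunits, 1 was called. *Gng11* fell 2.03-fold in IL-11+ fibroblasts (log2 fold change -1.02, SE 0.225, adjusted p = 0.00352, edgeR's quasi-likelihood test, Benjamini-Hochberg; lower in all 3 libraries). It stood at the fold threshold and dropped under it without IL-11- replicate 2 (log2 fold change -0.98), IL-11+ replicate 1 (-0.997) or IL-11+ replicate 3 (-0.93), and when low genes were not filtered (-0.98). *Gng12* and *Gng5*, the not called γ subunits with the most tags, had log2 fold changes of 0.67 (SE 0.164) and 0.44 (SE 0.168). *Gng12* missed the call only by its fold (adjusted p = 0.00838, edgeR's quasi-likelihood test, Benjamini-Hochberg).

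Partners and relatives of the RGS proteins gave 1 call among 10 tested genes. *Rgs7bp*, the membrane anchor of R7 proteins, had 56, 38 and 52 tags in the IL-11- libraries and 26, 20 and 9 tags in the IL-11+ libraries. It was lower in all 3 IL-11+ libraries (log2 fold change -1.24, SE 0.324, adjusted p = 0.0129, edgeR's quasi-likelihood test, Benjamini-Hochberg), and the call was lost without IL-11- replicate 1 (-1.08) or IL-11+ replicate 3 (-0.88). *Arhgef12* and *Snx13*, which carry RGS-like domains, had log2 fold changes of -0.21 (SE 0.159) and -0.19 (SE 0.249). Among other regulators of α subunits, 0 of 5 tested genes were called, and among receptor kinases and arrestins 0 of 5. *Rasd1*, a Ras-like protein that activates Gi, had a log2 fold change of -0.66 (SE 0.189), and *Ric8b*, a chaperone of Gs, had -0.23 (SE 0.23). For the kinases *Grk5* and *Grk4* the values were 0.64 (SE 0.191) and -0.39 (SE 0.223). Of these genes, *Rasd1* and *Grk5* missed the call only by their fold.

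**Figure D2:**
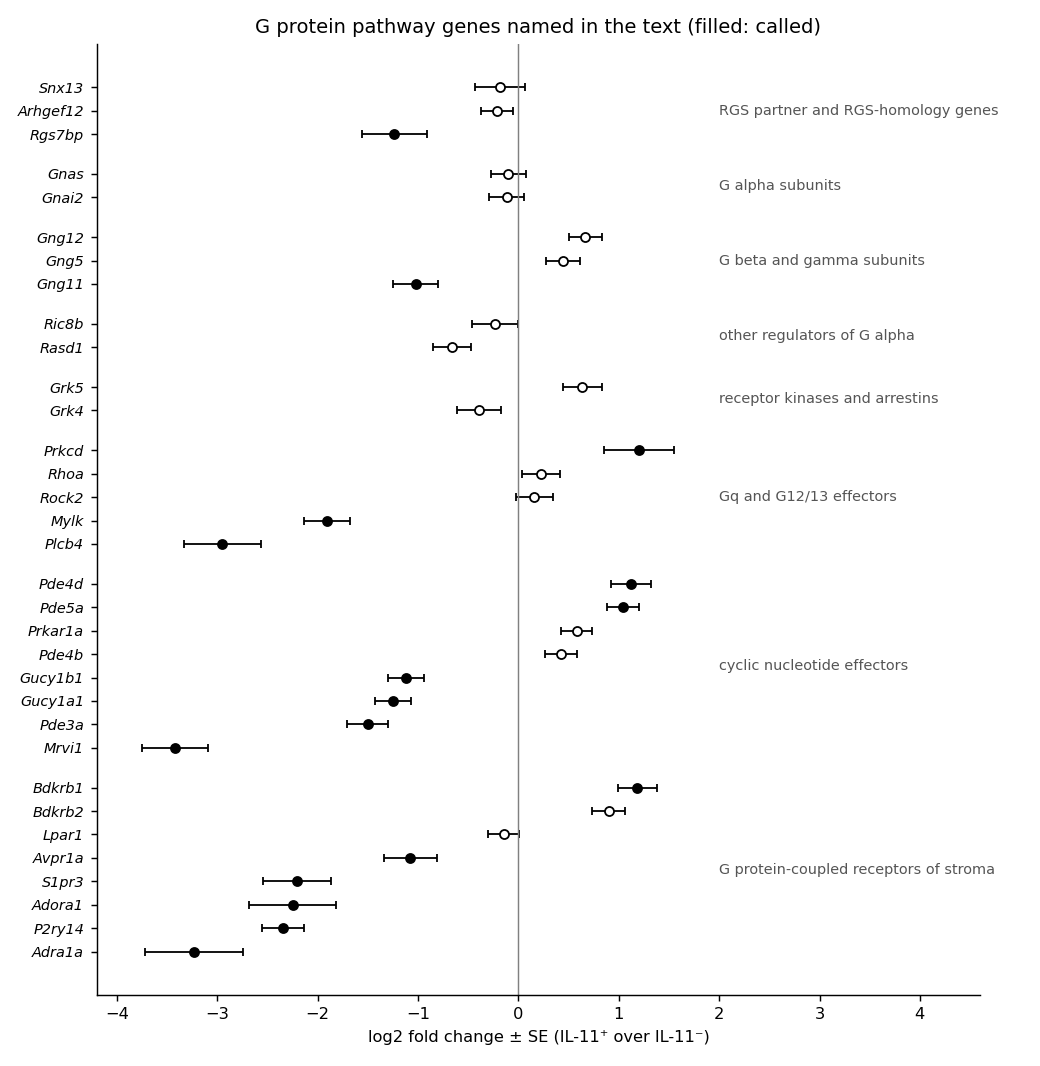
Log2 fold change ± SE (x axis, IL-11+ over IL-11- fibroblasts, n = 3 per group) of the G protein pathway genes named in the text, by list, with filled points for called genes. *Mrvi1* and *Plcb4* lie far to the left, at -3.42 and -2.95, and the called genes to the right, *Prkcd*, *Bdkrb1*, *Pde4d* and *Pde5a*, lie between 1.04 and 1.20. The point of *Adra1a* rests on few IL-11+ tags, and its place is not read as a ratio.

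Among the listed effectors downstream of Gq and related subunits, 1 of 13 tested genes was called higher and 2 were called lower. *Plcb4*, a phospholipase C activated by Gq, had 72, 34 and 60 tags in the IL-11- libraries and 5, 4 and 10 tags in the IL-11+ libraries, a 7.72-fold fall (log2 fold change -2.95, SE 0.38, adjusted p = 2.04e-05, edgeR's quasi-likelihood test, Benjamini-Hochberg). *Mylk*, the kinase that starts smooth muscle contraction, had 250, 321 and 385 tags in the IL-11- libraries and 49, 112 and 66 tags in the IL-11+ libraries (log2 fold change -1.91, SE 0.232). Both genes were low in every IL-11+ library and did not overlap between the groups. *Prkcd*, a protein kinase C, had 12, 14 and 20 tags in the IL-11- libraries and 47, 24 and 23 tags in the IL-11+ libraries (log2 fold change 1.20, SE 0.35). Its call was lost without IL-11- replicate 1 (1.09), IL-11- replicate 2 (1.181) or IL-11+ replicate 1 (0.75). *Rhoa* and *Rock2* overlapped between the groups, with log2 fold changes of 0.23 (SE 0.189) and 0.16 (SE 0.185).

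The cyclic nucleotide effectors held the most calls, with 2 of 18 tested genes higher and 7 lower. *Mrvi1*, a substrate of the cyclic GMP-dependent kinase that restrains calcium release in smooth muscle, had 54, 88 and 128 tags in the IL-11- libraries and 7, 7 and 8 tags in the IL-11+ libraries. All IL-11+ libraries were at the same low level, 10.7-fold under IL-11- (log2 fold change -3.42, SE 0.326, adjusted p = 6.35e-07, edgeR's quasi-likelihood test, Benjamini-Hochberg). *Gucy1a1* and *Gucy1b1*, the subunits of the soluble guanylate cyclase that senses nitric oxide, fell together, with log2 fold changes of -1.25 (SE 0.182) and -1.12 (SE 0.182), although *Gucy1b1* was at -0.98, under the fold threshold, without IL-11- replicate 1. *Pde3a*, a phosphodiesterase inhibited by cyclic GMP, fell from 278 ± 75.0 to 97.9 ± 14.1 normalized CPM (SD, n = 3). In contrast, *Pde5a*, which breaks down cyclic GMP, rose from 230 ± 15.4 to 474 ± 44.3, and *Pde4d*, which breaks down cyclic AMP, from 46.1 ± 7.02 to 100.2 ± 18.0 (SD, n = 3). *Pde5a* was at a log2 fold change of 0.98 without IL-11+ replicate 3 and 0.965 with library size only, and *Pde4d* at 0.98 without IL-11+ replicate 1. *Prkar1a* and *Pde4b*, not called, had log2 fold changes of 0.58 (SE 0.158) and 0.43 (SE 0.16), and *Prkar1a* missed the call only by its fold. The phosphodiesterases thus differed in direction, as the RGS genes did.

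Of the receptors listed for stromal cells, 20 were tested, and 1 was called higher and 5 called lower. *Adra1a*, a Gq-coupled adrenergic receptor, had 26, 30 and 20 tags in the IL-11- libraries and 1, 2 and 4 tags in the IL-11+ libraries, too few for a ratio to be given. *P2ry14*, a Gi-coupled receptor for UDP sugars, had 141, 127 and 129 tags in the IL-11- libraries and 23, 26 and 21 tags in the IL-11+ libraries (log2 fold change -2.34, SE 0.209, adjusted p = 3.17e-07, edgeR's quasi-likelihood test, Benjamini-Hochberg). Both were low in every IL-11+ library. *S1pr3*, a receptor for sphingosine-1-phosphate, and *Adora1*, a Gi-coupled adenosine receptor, had log2 fold changes of -2.20 (SE 0.338) and -2.25 (SE 0.432), and *Avpr1a*, the vasopressin receptor of vessels, had -1.08 (SE 0.261). *Adora1* was at -3.39 without IL-11+ replicate 3, which held most of its IL-11+ tags. Without IL-11- replicate 1 or IL-11+ replicate 2, *Avpr1a* was at -0.96 or -0.99 and no longer called. *Bdkrb1*, the bradykinin receptor induced in inflamed tissue, rose from 141 ± 37.7 to 322 ± 40.0 normalized CPM (SD, n = 3; log2 fold change 1.19, SE 0.193, adjusted p = 0.000242, edgeR's quasi-likelihood test, Benjamini-Hochberg) and was higher in all 3 IL-11+ libraries. *Bdkrb2*, its constitutive relative, had a log2 fold change of 0.90 (SE 0.166), under the fold threshold, and passed that threshold without IL-11- replicate 2 (1.03). *Lpar1*, the other not called receptor with the most tags, was at -0.15 (SE 0.156).

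Markers of smooth muscle were low in the IL-11+ libraries, as *Rgs5* and *Rgs4* were. The smooth muscle list (10 of 10 genes with a row) summed to 2769, 3413 and 4286 normalized CPM in the IL-11- libraries and to 141, 207 and 394 in the IL-11+ libraries. It was high in every IL-11- library, and its sum was 14.1-fold lower in IL-11+ fibroblasts. All 10 of its tested genes had a log2 fold change under 0, and 9 were called lower. *Myh11*, the smooth muscle myosin and the most abundant of them, had 850, 943 and 1332 tags in the IL-11- libraries and 18, 18 and 84 tags in the IL-11+ libraries, and *Acta2*, *Tagln*, *Myl9*, *Actg2* and *Des* had log2 fold changes between -4.27 and -3.59. Without IL-11+ replicate 3, *Myh11* was at -5.63, *Acta2* at -4.52 and *Actg2* at -4.74. Among the IL-11+ libraries, replicate 3 had the highest smooth muscle sum. In IL-11+ replicates 1, 2 and 3, *Rgs5* stood at 197, 177 and 196 normalized CPM and *Rgs4* at 12.7, 6.09 and 12.4. A link between these levels and the smooth muscle sum was not tested.

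The pericyte list (10 of 10 with a row) did not move as a sum. It was 880, 767 and 707 normalized CPM in the IL-11- libraries and 883, 734 and 622 in the IL-11+ libraries, and the groups overlapped. Its most abundant gene, the potassium channel subunit *Abcc9*, had 325, 275 and 267 tags in the IL-11- libraries and 469, 391 and 373 tags in the IL-11+ libraries, with a log2 fold change of 0.66 (SE 0.182) and no call. Of the 9 tested genes, 7 had a log2 fold change under 0 and 6 were called lower. The called genes were *Cspg4*, *Notch3*, *Mcam*, *Cox4i2*, *Ndufa4l2* and *Anpep*. *Notch3*, the receptor that shapes mural cells, had 69, 57 and 67 tags in the IL-11- libraries and 4, 0 and 7 tags in the IL-11+ libraries. *Cspg4*, the NG2 proteoglycan of pericytes, had 71, 67 and 70 tags in the IL-11- libraries and 11, 15 and 11 tags in the IL-11+ libraries. Both were low in every IL-11+ library. The log2 fold changes of *Cspg4*, *Mcam* and *Notch3* were -2.32, -2.95 and -3.94, the last at -4.73 without IL-11+ replicate 3. *Cox4i2*, with 20, 19 and 27 tags against 0, 1 and 2, and *Ndufa4l2*, with 21, 36 and 29 tags against 3, 1 and 1, had too few IL-11+ tags for a ratio to be given. *Anpep*, at -1.59 (SE 0.487), lost its call without IL-11- replicate 1 (-1.64), IL-11- replicate 3 (-1.33), IL-11+ replicate 1 (-1.12) or IL-11+ replicate 2 (-1.56), and was at -2.38 without IL-11+ replicate 3. Without *Abcc9*, a sum formed after its values were seen, the list stood at 570.02, 508 and 488 normalized CPM in IL-11- and at 386, 337 and 266 in IL-11+ libraries.

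**Figure D3:**
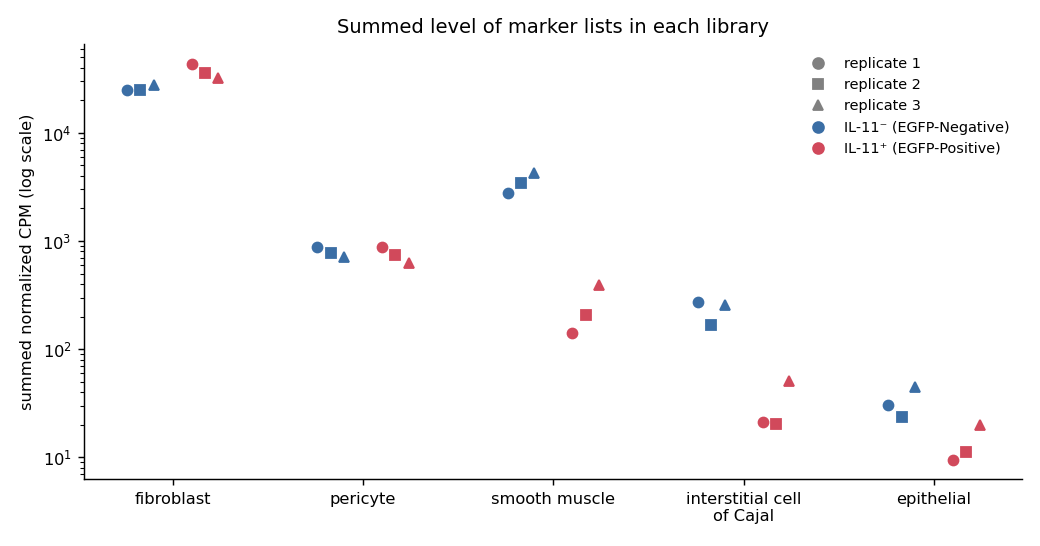
Summed normalized CPM of 5 of the marker lists (y axis, log scale) in each of the 6 libraries. The smooth muscle, interstitial cell of Cajal and epithelial lists are lower in all 3 IL-11+ libraries, the fibroblast list is higher there, and the pericyte list overlaps between the groups. The epithelial sum is mostly *Lgals4*, and without this gene the groups overlap.

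Among the other lists, the interstitial cells of Cajal, the pacemakers of the gut wall (3 of 3 with a row), summed to 271, 168 and 258 normalized CPM in the IL-11- libraries and to 21.2, 20.3 and 50.5 in the IL-11+ libraries, and *Kit* had 0 tags in IL-11+ replicates 1 and 2. *Ano1*, the most abundant of them, had 152, 93 and 196 tags in the IL-11- libraries and 1, 0 and 15 in the IL-11+ libraries, and all 3 genes fell (*Kit*, *Ano1* and *Etv1*, the last not called without IL-11- replicate 1, at -0.91). No listed marker with a row was at 0 in all 6 libraries.

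Markers of cells outside the stroma left few tags in most libraries. The endothelial list (5 of 7 with a row, *Emcn* most abundant) summed to 9, 7 and 2 tags in the IL-11- libraries and to 0, 2 and 2 tags in the IL-11+ libraries. For the immune list (5 of 6, *S100a8* most abundant) the sums were 4, 10 and 11 tags in IL-11- and 17, 6 and 14 in IL-11+ libraries. Epithelial markers (5 of 6, *Lgals4* most abundant) gave 32, 25 and 54 tags in IL-11- and 9, 11 and 21 in IL-11+ libraries, and *Lgals4* fell (log2 fold change -1.26), with the call lost without IL-11- replicate 3 (-1.12), IL-11+ replicate 1 (-1.02) or IL-11+ replicate 2 (-1.16). Without *Lgals4*, the epithelial list stood at 2.86, 0 and 11.5 normalized CPM in the IL-11- libraries. In the IL-11+ libraries it was then 2.12, 1.02 and 2.86, so the groups overlapped. Mesothelial markers (3 of 3, *Upk3b* most abundant) gave 4, 0 and 13 tags in IL-11- and none in IL-11+ libraries. Erythroid markers (3 of 3, *Hba-a1* most abundant) gave 47, 0 and 143 tags in IL-11- and 8, 2 and 6 in IL-11+ libraries. The erythroid list was thus uneven, high in IL-11- replicates 1 and 3 and low in the other 4 libraries.

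Fibroblast markers were abundant in both groups, and the IL-11- libraries also held the smooth muscle and Cajal cell markers given above. The 10 fibroblast genes, all with a row, summed to 24845, 24968 and 27415 normalized CPM in the IL-11- libraries and to 43377, 35520 and 31912 in the IL-11+ libraries, with *Dcn* as the most abundant gene. Of the 10 tested genes, 7 had a log2 fold change over 0 and 3 had one under 0, and 8 were not called. *Col3a1* and *Pdpn*, 2 of the 10, were called higher, with log2 fold changes of 1.04 (SE 0.204) and 1.06 (SE 0.173). Without IL-11- replicate 1 they were at 0.85 and 0.96, and without IL-11+ replicate 1 *Pdpn* was at 0.96, under the fold threshold. With library size only, *Col3a1* was at 0.955 and *Pdpn* at 0.968. The part of these marker levels in the differences of the RGS genes was not tested.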

How the data were processed

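5′Tag-seq libraries of IL-11- and IL-11+ colonic fibroblasts were read as the authors deposited them, as raw tag counts per gene symbol, 1 library per file. Per the labels and the paper, tags were trimmed with Cutadapt 1.18 and aligned by Bowtie2 2.2.5 to RefSeq RNA of mm10, in a single orientation. R 3.5.1 and edgeR through TCC followed in the paper and were not used here. The treatment of tags with several alignments and of molecular identifiers is not given in the sources used here. Libraries held 1022851 to 1169817 tags, and 3 tags per library, taken as the floor for counting error only, were 2.46 to 3.18 normalized CPM.

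Counts were scaled by TMM and tested with edgeR 4.0.16 (R 4.3.3; quasi-likelihood F test, group as the only term, Benjamini-Hochberg over 9334 genes) where a gene reached 10 tags in 3 libraries. The SE is the log2 fold change divided by the square root of its F statistic. Scripts were tested on simulated data. Alternatives were RLE scaling, library size only, DESeq2 1.42.0, no filter, 10 tags in all 6 libraries, a replicate block, no fold threshold, a prior count of 2, and leaving out each library. Deviations from group means correlated between same-numbered libraries of the groups (r = 0.23, 0.18 and 0.26 over 5063 genes with a mean of 30 or more tags). Between libraries of differing numbers the mean r was -0.11. The correlations are weak, and a pairing of the samples by number was assumed from them, not settled. The paper gives 3 mice for both fractions, and the match of number to mouse is inferred from these values only. The main fit and its SE leave the pairing out, and the block takes it in.

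Of the marker lists, 1 is not reported here. Members and lists were chosen with earlier results of these data known. The fit covered the members too, and their values and calls are given as a description without p-values. Named were all members, other RGS genes reaching 10 tags in any library, up to 6 called genes per list by tags and the 2 not called with the most tags, the most abundant and called genes of each marker list, and the 5 genes most like *Rgs5*. Positions are from GENCODE M21 (GRCm38), and promoters from RefSeq (GRCm38.p6).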

Additional observations from a re-analysis of the deposited data

How the results depend on the processing

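With the fold threshold left out, 638 genes were higher in IL-11+ fibroblasts in place of 321, and 9 G protein pathway genes in place of 4, since fewer conditions were asked. With 10 tags asked of all 6 libraries, 256 genes were lower in place of 595, 8 pathway genes in place of 16, 1 member in place of 2 and 0 other RGS genes in place of 1, where genes low in 1 group, *Rgs4* and *Rgs1* among them, drop out by construction. *Rgs12* and *Rgs17* have no value there either. In the same setting, 1 member was higher in place of 2, as with library size only, because *Rgs2* fell under the fold threshold. Without a filter, 7 pathway genes were higher and 2 other RGS genes lower, and the cause was not tested. Leaving out each library in turn gave 267 to 329 genes higher, 483 to 580 lower, 1 to 3 members higher, 2 to 2 members lower, 0 to 1 other RGS genes lower, 0 to 0 higher, 2 to 5 pathway genes higher and 12 to 17 lower. All 101 values of members under the alternatives moved by less than 1 SD of the gene's log2 level within groups, though *Rgs12*, not called, turned sign. Leaving out a single library can hardly move a value that far, so stability is not read from those values. Of other genes, 734 values kept their side of the call rule, 35 lost a call, 5 gained it and 0 called values turned sign.

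With the replicate block, 337 genes were higher and 648 lower, of which 318 and 594 were shared with the main fit. Members higher were 2 and lower 2, other RGS genes 0 and 1, and pathway genes 6 and 17. The block changed no call of a member, and the cause of the other changes was not tested. Depth limits genes near 10 tags, such as *Rgs17*, *Rgs12* and *Rgs19*.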

Other observations

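Genes tied to tissue dissociation and early response (10 of 10 with a row and tested) held 2 genes called lower in IL-11+ fibroblasts and none called higher. The log2 fold change was under 0 for all 10, with a median of -0.86, and for 4781 of all 9334 tested genes. *Junb*, an AP-1 subunit, stood at 1401 ± 120 and 694 ± 27.7 normalized CPM (SD, n = 3; log2 fold change -1.01, SE 0.162), and was under the fold threshold without IL-11- replicate 2 (-0.94), IL-11+ replicate 1 (-0.987) or IL-11+ replicate 3 (-0.998), and without a filter (-0.97). *Atf3*, a stress-induced repressor, stood at 1047 ± 383 and 229 ± 80.0 (log2 fold change -2.19, SE 0.27). *Egr1* and *Fos*, not called, had log2 fold changes of -0.54 (SE 0.185) and -0.95 (SE 0.177), and *Fos* passed the threshold without IL-11- replicate 3 (-1.05) or IL-11+ replicate 2 (-1.02) and with library size only (-1.03).

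Of 3206 genes with a mean of at least 50 normalized CPM, those most like *Rgs5* by Pearson r over the 6 libraries were *Eif3m* (0.998), *Rsbn1l* (0.996), *Myd88* (0.996), *Nenf* (0.995) and *Esyt2* (0.994). The libraries form 2 groups, so r here mostly reflects the difference between them. None of these genes was called, with log2 fold changes of -0.43, -0.48, -0.95, -0.89 and -0.82, and *Myd88* passed the fold threshold with library size only (-1.03).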
